A study of Homo sapiens with 4 samples.

Results

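Lamin B1 occupancy was examined over the 1075 rows of 40 kb that make up chromosome 19 outside its zinc finger gene clusters, in LNCaP and in VCaP cells. The members are all 40 kb rows of chromosome 19 with a value in both lines, less those touching 8 excluded intervals. They are 76.9% of the 1398 such rows of the chromosome, the other 323 lying in the intervals, and 1.50% of the 71436 common rows of the genome. The rule uses positions alone and no measured value.

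LNCaP is an established prostate adenocarcinoma line, and VCaP an established line from a bone metastasis of prostate cancer. The labels name no drug or other agent. Cultured cells of each were fixed with formaldehyde and sonicated, and chromatin was precipitated with an antibody to lamin B1. Per line there was 1 ChIP library and 1 input library made without antibody, so the 4 libraries form 4 groups of 1 and no difference between lines has a replicate check. The deposited value of a row is its log2 enrichment of ChIP over input, in hg19, and the read depth behind it is unknown. No p-value is given, and the errors are spreads over rows or the noise of a row, 0.15 on the log2 scale for LNCaP and 0.22 for VCaP. The noise of a median or a difference of medians was taken from it with 1 value per 3 rows, and it covers scatter along a table, not variation between cultures or libraries.

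The lamins are intermediate filament proteins that line the inside of the nuclear envelope. Chromatin touching this layer tends to be gene-poor, late-replicating and silent, whereas gene-rich chromosomes tend to lie in the nuclear interior. Chromosome 19 is the textbook case of a gene-rich chromosome, and its tandem arrays of KRAB zinc finger genes, which encode DNA-binding repressors, are its best known repressed and peripheral portion. The members are the remainder of the chromosome.

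The excluded intervals and the centromere cut the members into 9 stretches, numbered here from the short arm end. Textbook genes of each were placed by their order along the chromosome in the RefSeq table of GRCh38, with no coordinate taken from it, since the values are in hg19. Stretch 1 holds STK11 (a tumour suppressor kinase), TCF3 (a lymphoid transcription factor), LMNB2 (lamin B2), EEF2 (an elongation factor of translation), UHRF1 (which guides maintenance of DNA methylation) and INSR (the insulin receptor). Stretch 2 holds DNMT1 (the maintenance DNA methyltransferase), ICAM1, TYK2, KEAP1 and SMARCA4 (a chromatin remodelling ATPase). In stretch 3 lie JUNB, CALR, CACNA1A, NOTCH3, JAK3 and JUND. No gene was fixed for stretch 4, which is 6 rows long and ends at the centromere. Stretch 5 begins the long arm and holds CCNE1 (cyclin E1), TSHZ3, CEBPA, GPI, HAMP (hepcidin) and KMT2B. Stretch 6 holds RYR1, ACTN4, AKT2, AXL, TGFB1, CIC and XRCC1. BCL3, ERCC2 and ERCC1 (both of nucleotide excision repair), DMPK, BAX, FTL (ferritin light chain) and POLD1 lie in stretch 7. The receptor genes SIGLEC9, CD33 and FPR1 lie in stretch 8, and LILRB1, KIR3DL1, TNNT1 and NLRP13 in stretch 9.

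The gene order fitted the rule except at 1 interval. The 8 groups of textbook genes followed each other in the stated order. Genes with a ZNF symbol numbered 165 between the groups and 53 after the last, against 32 of the 836 coding genes inside the groups. Of the 7 gaps between groups, 6 held ZNF genes. The gap between POLD1 and SIGLEC9, which matches the excluded rows from 51280001 to 51600000, held 0 ZNF genes and 15 kallikrein (KLK) genes among its 31 coding genes. Its 8 rows are called cluster rows below because the rule leaves them out, and without them the member minus cluster differences given below were -0.13 in LNCaP and 0.39 in VCaP.

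The sequence just before 4 of these genes is printed as an example, with a gene from each of 4 stretches, 2 on each arm. Each is the 250 bases before the RefSeq start in GRCh38.p14, 5′ to 3′ on the gene's own strand, with every CG dinucleotide, which reads the same on both strands, in capitals. Rows of 40 kb do not resolve a promoter, so no enrichment is given for these bases.
LMNB2: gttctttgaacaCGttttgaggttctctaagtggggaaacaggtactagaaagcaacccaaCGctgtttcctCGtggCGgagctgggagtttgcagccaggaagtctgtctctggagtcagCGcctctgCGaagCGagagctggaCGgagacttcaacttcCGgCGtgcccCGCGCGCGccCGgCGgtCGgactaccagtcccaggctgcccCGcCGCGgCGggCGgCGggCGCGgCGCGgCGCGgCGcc
DNMT1: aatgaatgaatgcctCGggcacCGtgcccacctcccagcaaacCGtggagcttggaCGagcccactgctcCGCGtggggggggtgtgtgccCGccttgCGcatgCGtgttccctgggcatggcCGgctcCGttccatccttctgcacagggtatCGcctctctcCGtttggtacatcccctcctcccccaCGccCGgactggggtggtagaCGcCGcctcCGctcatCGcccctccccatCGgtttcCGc
CCNE1: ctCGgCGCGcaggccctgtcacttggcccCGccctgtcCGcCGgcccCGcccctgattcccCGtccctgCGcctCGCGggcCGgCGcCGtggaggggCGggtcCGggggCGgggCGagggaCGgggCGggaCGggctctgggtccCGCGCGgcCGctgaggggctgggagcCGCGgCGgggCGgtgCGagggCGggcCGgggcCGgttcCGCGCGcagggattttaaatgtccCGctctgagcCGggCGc
ERCC2: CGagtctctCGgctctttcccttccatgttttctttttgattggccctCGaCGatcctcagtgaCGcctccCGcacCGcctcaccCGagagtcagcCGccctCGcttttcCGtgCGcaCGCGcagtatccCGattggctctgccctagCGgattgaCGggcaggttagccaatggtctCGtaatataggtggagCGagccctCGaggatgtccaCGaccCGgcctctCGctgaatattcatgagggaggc
LMNB2, DNMT1 and ERCC2 are on the minus strand and CCNE1 on the plus strand. The numbers of CG dinucleotides were 30 for LMNB2, 21 for DNMT1, 39 for CCNE1 and 23 for ERCC2. Each was above the median of the genes of its stretch (23, 20, 17 and 17), so the 4 do not stand for the members at large. Only 3.20% of coding promoters held as many as CCNE1. The median over all 15843 coding genes with a sequence was 17, and 96.9% of them held at least 1. In the group of stretch 1 the median was 23 over 143 promoters, and in stretch 7 it was 17 over 165. Among all coding genes from SIGLEC9 to FPR1 in stretch 8 it was 5 over 20. Chromosome 19 as a whole, with a median of 16 over 1185 promoters, lay near the median of all promoters.

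The first comparison is of the lines over the same rows. In VCaP nearly all of the member rows were enriched for lamin B1, and in LNCaP the values centred on 0. The median log2 enrichment of the members was 0.76 in VCaP (interquartile range 0.59 to 0.91) and 0.01 in LNCaP (-0.24 to 0.24). Over all common rows the medians were 0.19 and 0.06. Enrichment was above 0 in 1060 of the 1075 members in VCaP and in 545 in LNCaP. The VCaP value was the higher in 1054 members, or 98.0%, against 58.1% of all rows.

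Row by row, the VCaP minus LNCaP difference had a median of 0.75 (interquartile range 0.49 to 0.99). The noise of such a difference had an SD of 0.27, so 0.53 was taken as the limit of noise. VCaP exceeded LNCaP beyond that limit in 752 members, or 70.0%, where 19.7% of all rows did so. LNCaP exceeded VCaP beyond it in 0 members, against 8.30% of all rows, and in either direction 28.0% of all rows passed it. The median difference of all rows was 0.10, so the members lay 0.65 above the general offset between the 2 tables.

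The members lay differently within the genome-wide ranges of the 2 lines. In VCaP 507 members, or 47.2%, were among the highest 10.0% of all rows and 5 among the lowest 10.0%. In LNCaP 216 members, or 20.1%, were among the lowest 10.0% and 69 among the highest 10.0%. The members thus gathered at the top in VCaP. In LNCaP 180 of the 216 lowest lay in a single block of the long arm described below. Among the 877 other members 36 (4.10%) were in the lowest and 69 (7.87%) in the highest 10.0%. The block was singled out after its low values were seen, so the small share at the lower end is partly set by that choice.

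The deposited hidden Markov model gives each row 1 of 2 states, of which that with the higher enrichment is called associated here. In VCaP 1053 members, or 98.0%, were associated, where 44.4% of all rows were. In LNCaP 324 members, or 30.1%, were associated, where 37.9% of all rows were. Members associated in VCaP only numbered 729, or 67.8%, where 23.8% of all rows fell in that class. Both lines were associated in 324 members (30.1%, all rows 20.6%) and neither in 22 (2.05%, all rows 38.4%). No member was associated in LNCaP only, where 17.2% of all rows were. Only the 22 members outside the state in VCaP could have fallen in that class, and on chromosome 22 it held 6 rows, or 0.69%. Every LNCaP-associated member was thus associated in VCaP as well.

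Strength within a state differed between the lines too. The associated members had a median of 0.76 in VCaP, against 0.54 for all associated rows of that line. In LNCaP the medians were 0.39 for associated members and 0.40 for all associated rows. The 751 other members had a median of -0.11 in LNCaP, where all such rows had -0.10. The associated members were thus above the usual level of their state in VCaP, by about the noise of a single row (0.22), and at the usual level in LNCaP.

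**Figure D1:**
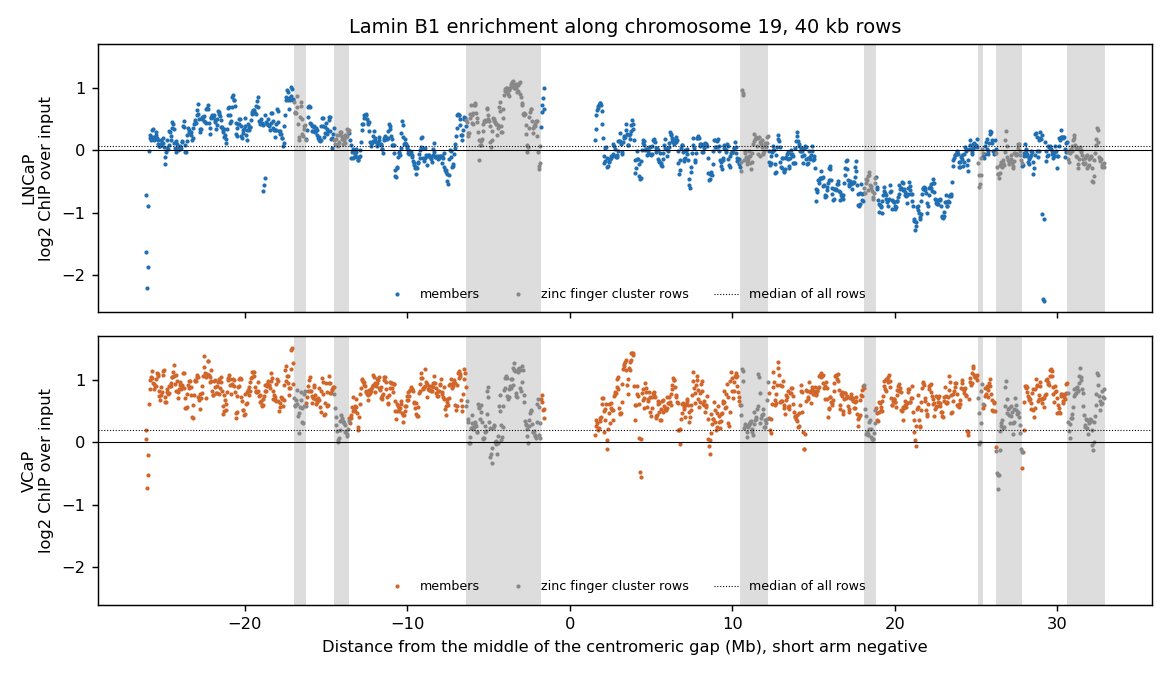
Log2 enrichment of lamin B1 ChIP over input in each 40 kb row of chromosome 19 (vertical axis) against distance from the middle of the centromeric gap in Mb (horizontal axis), LNCaP above and VCaP below, with members coloured, cluster rows grey on shaded bands, and the median of all rows dotted. VCaP members lie around 0.76 along both arms, whereas LNCaP members fall from 0.37 in the first stretch to -0.70 in the seventh.

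The members were next set beside the other chromosomes. Taken as a chromosome of their own, they had the highest VCaP median, followed by chromosome 22 at 0.67 and chromosome 16 at 0.58, and the highest associated share in VCaP, followed by chromosome 22 at 90.3%. Their spread over rows in VCaP, an SD of 0.27, was the lowest of all, the next being 0.34 on chromosome 22. In LNCaP 11 of the 23 other chromosomes had a higher median and 12 a lower one, and only 2 had a larger SD than the members' 0.44. Gene-rich chromosome 17 had medians of 0.49 in VCaP and -0.03 in LNCaP, and chromosome 22 had 0.67 and -0.08. The members exceeded chromosome 22 by 0.09 in each line, with a noise SD of the difference of 0.012 in LNCaP and 0.018 in VCaP. The line difference of the members was shared by these chromosomes. On chromosome 22 71.2% of rows were associated in VCaP only, and on chromosome 17 56.8%. VCaP exceeded LNCaP beyond the limit of noise in 68.2% and 48.5% of their rows, and their median differences were 0.72 and 0.51.

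Gene density ran with the VCaP medians and not with those of LNCaP. RefSeq lists 1451 protein-coding genes on chromosome 19, or 1.04 per 40 kb row, against 0.60 on chromosome 17, the next densest. Across the 24 chromosomes genes per row and the median enrichment correlated with a Pearson r of 0.82 and a Spearman rho of 0.66 in VCaP. Without chromosome 19 these were 0.79 and 0.62. In LNCaP r was 0.07 and rho 0.01. Chromosomes of a line share 1 pair of libraries, and length and base composition vary with gene density, so these coefficients describe the tables only. Chromosome 19 entered them as a whole, with clusters.

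**Figure D2:**
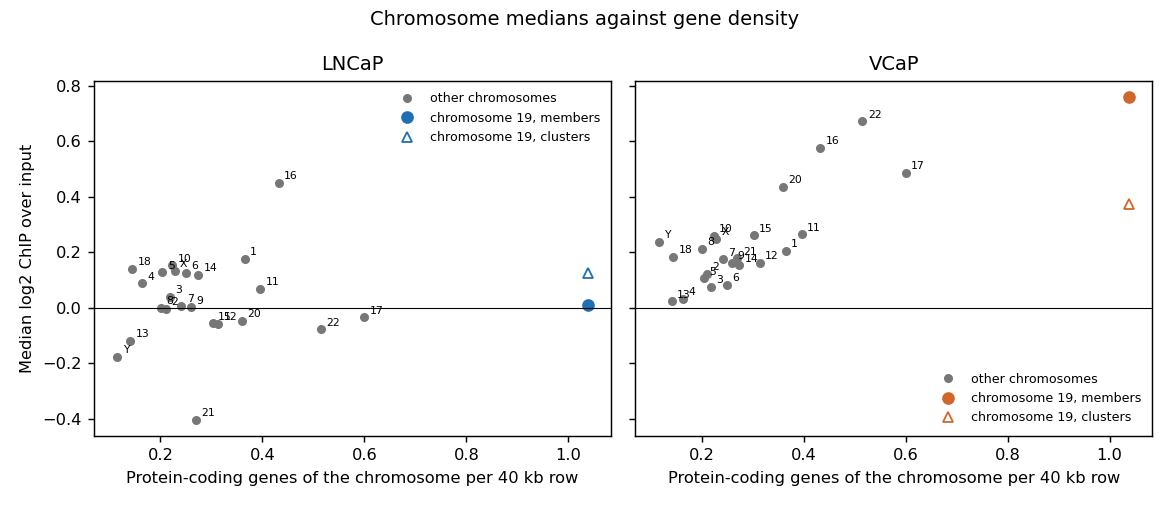
Median log2 enrichment of each chromosome (vertical axis) against its protein-coding genes per 40 kb row (horizontal axis), LNCaP on the left and VCaP on the right, with chromosome 19 split into members (filled) and cluster rows (triangle). Plotted at the 1.04 genes per row of the whole chromosome, the members have the highest VCaP median, 0.76, and a LNCaP median of 0.01 amid the other chromosomes.

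Within chromosome 19 the members were compared with the zinc finger clusters they surround. In VCaP the members were more enriched than the cluster rows by 0.39 (noise SD 0.025), the cluster median being 0.37 with an interquartile range of 0.22 to 0.69. In LNCaP the cluster median was 0.13 (-0.14 to 0.45), which put the members 0.11 lower with a noise SD of 0.016. That LNCaP difference was -0.059 with the averaging undone and -0.061 without stretch 7. Among cluster rows 155 of 323, or 48.0%, were associated in LNCaP and 282, or 87.3%, in VCaP. By arm, VCaP members exceeded the clusters by 0.48 on the short arm and by 0.31 on the long arm. In LNCaP the short arm members lay 0.20 below the clusters, and on the long arm both medians were -0.12.

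The borders of the clusters showed the VCaP contrast over short distances, but not the LNCaP one. Means of up to 10 rows on each side were compared at the 15 borders with at least 5 members outside, after undoing the 3-entry averaging of the deposited values. In VCaP the outside was higher at 15 of 15 borders, with a median difference of 0.40 and a range of 0.03 to 0.70. In LNCaP it was higher at 8 borders and lower at 7, with a median of 0.09 and a range of -0.32 to 0.56. The largest VCaP contrast, 0.70, was at the left border of the kallikrein interval, where POLD1 lies upstream, with means of 1.10 outside and 0.40 inside. Next came the left border of the cluster from 11680001 to 12600000, where stretch 2 ends, with 0.91 outside and 0.24 inside.

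VCaP members reached their usual level within a few rows. Averaged over the borders, VCaP enrichment was 0.46 ± 0.33 (SD over 15 borders) in the last cluster row, 0.50 ± 0.51 in the first member, 0.63 ± 0.41 in the second and 0.80 ± 0.35 in the third. The LNCaP means over the same rows were -0.06 ± 0.45, 0.04 ± 0.45, 0.06 ± 0.47 and 0.13 ± 0.48. The LNCaP means changed less than those of VCaP over these rows. In both lines the SD over borders takes in differences of level between borders, so it does not measure the change at a border.

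**Figure D3:**
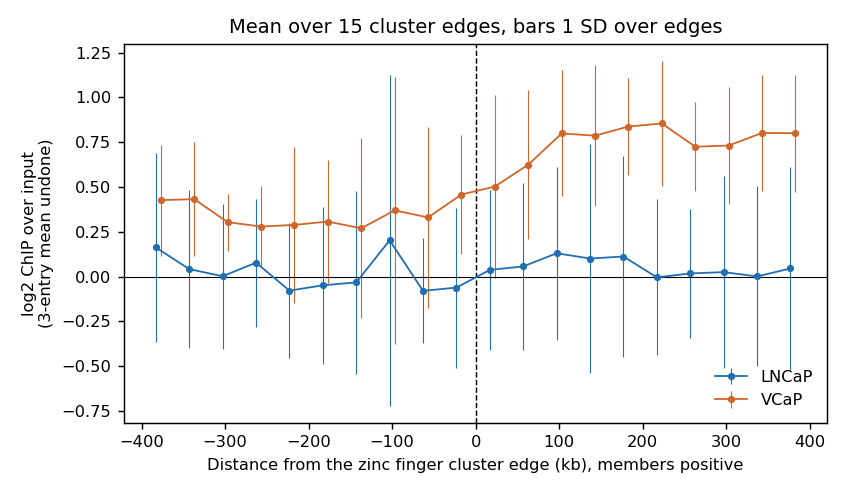
Mean log2 enrichment, with the 3-entry averaging undone, in 40 kb rows (vertical axis) against distance from a cluster border in kb (horizontal axis), members to the right, over 15 borders, with bars of 1 SD over borders. VCaP rises from 0.46 in the last cluster row to 0.80 in the third member, and LNCaP stays near 0.

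The arms were compared because LNCaP varied along the chromosome. The 457 short arm members had a LNCaP median of 0.25 and the 618 long arm members one of -0.12, a difference of 0.37 (noise SD 0.016). In VCaP the medians were 0.83 and 0.70, a smaller difference of 0.13 (noise SD 0.024). LNCaP was associated in 294 short arm members, or 64.3%, and in 30 long arm members, or 4.85%. VCaP was associated in 98.9% and 97.2%. VCaP was thus associated along nearly all of both arms, whereas LNCaP was associated mostly on the short arm. The cluster rows were split likewise in LNCaP, with 96.8% associated on the short arm and 1.81% on the long arm.

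Among the 8 stretches of 20 or more rows, the LNCaP medians spanned 1.07 log2 units and the VCaP medians 0.25. Stretch 1, from 80001 to 9200000 with STK11, LMNB2 and INSR, had medians of 0.37 in LNCaP and 0.88 in VCaP, the highest of the 8 in both lines. Of its 228 rows 189 were associated in LNCaP and 223 in VCaP. Stretch 2, from 9960001 to 11680000 with DNMT1 and SMARCA4, had medians of 0.33 and 0.80, and all 43 rows were associated in both lines. Its median difference of 0.42 was the smallest of the 8.

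In stretch 3, from 12600001 to 19800000 with JUNB, NOTCH3 and JAK3, the LNCaP median was 0.02 and the VCaP median 0.82. LNCaP was associated in 56 of its 180 rows and VCaP in 180. Stretch 5, from 27720001 to 36680000 with CCNE1 and CEBPA, was similar in LNCaP, at 0.01 with 30 of 224 rows associated. Its VCaP median of 0.63 was the lowest of the 8, with 215 rows associated. Both stretches were therefore near 0 in LNCaP and well above 0 in VCaP.

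Stretch 6, from 38400001 to 44280000 with RYR1, AKT2 and TGFB1, had medians of -0.29 in LNCaP and 0.73 in VCaP. Stretch 7, from 45000001 to 51280000 with BCL3, ERCC1 and FTL, had the lowest LNCaP median, -0.70, while that of VCaP was 0.70. VCaP was beyond the limit of noise in 154 of its 157 rows. In stretch 8, from 51600001 to 52400000, the medians were 0.04 and 0.74 over 20 rows. In stretch 9, from 54000001 to 56800000, they were -0.02 and 0.76 over 70 rows. LNCaP was associated in 0 rows of stretches 6 to 9, where VCaP was associated in 143 of 147, 157 of 157, 19 of 20 and 67 of 70.

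**Figure D4:**
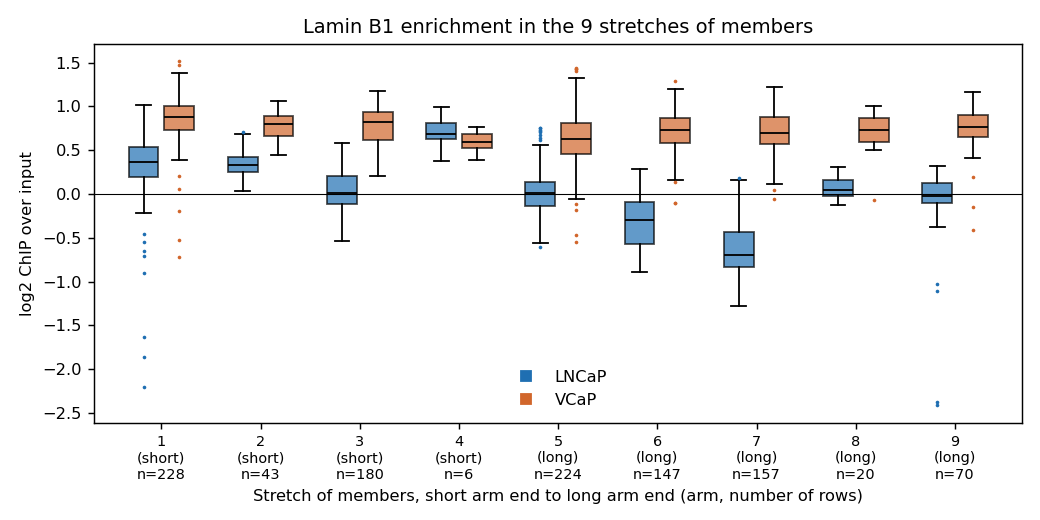
Log2 enrichment over the 40 kb rows of each of the 9 stretches of members (boxes span the quartiles, whiskers reach 1.5 times the box length, points lie beyond), LNCaP in blue and VCaP in orange, ordered from the short arm end. LNCaP medians range from 0.37 in stretch 1 to -0.70 in stretch 7 among stretches of 20 or more rows, and VCaP medians from 0.63 to 0.88.

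The order of the LNCaP levels was uneven among the 8 stretches of 20 or more rows. The medians of stretches 1 and 2, 0.37 and 0.33, differed by less than the noise of their means (0.017 and 0.039, in quadrature). So did the medians of each pair of stretches 3, 5, 8 and 9, which lay between -0.02 and 0.04. Their means were 0.05, 0.01, 0.07 and -0.09. By means, stretch 9 lay below the other stretches of this group, and stretch 5 below stretch 3, beyond that noise. The mean of stretch 9 takes in the narrow dip described below, with rows down to -2.41, so it does not describe the stretch at large. Stretch 6 lay below all of this group by more than that noise, and stretch 7 below stretch 6 by more again. In VCaP stretch 5 was 0.25 below stretch 1, beyond the noise of their means (0.026 each), and the other 6 lay between.

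A block of low LNCaP values, singled out after its values were seen, ran from 41000001 to 49640000. Its 198 members had a median of -0.70 in LNCaP (interquartile range -0.82 to -0.55) and 0.71 in VCaP (0.57 to 0.86). In LNCaP 180 of them were in the lowest 10.0% of all rows, of the 216 such members in all. The cluster rows from 44280001 to 45000000, which lie within its limits, had medians of -0.57 in LNCaP and 0.19 in VCaP. The 289 long arm members before the block had medians of -0.01 and 0.64, and the 131 after it -0.02 and 0.77. By 1 Mb windows LNCaP fell from -0.01 ± 0.14 (SD over 25 rows) at 40000001 to 41000000 to -0.44 ± 0.25 in the next and -0.60 ± 0.16 in the one after. It reached -0.87 ± 0.23 at 47000001 to 48000000 and returned to -0.09 ± 0.13 at 50000001 to 51000000. VCaP means of these 5 windows were 0.52, 0.89, 0.76, 0.57 and 0.75. The LNCaP fall and recovery had no counterpart of that size in VCaP. ChIP and input reads were not analysed separately here, and the part of copy number in these LNCaP values, and in those of the dips described below, was not tested.

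The distal border of the block was sharp. With the averaging undone, the LNCaP median of 10 rows was -0.82 before position 49640000 and -0.10 after it, a step of 0.71. The VCaP medians there were 0.67 and 0.71. Over the 917 positions tested among members the median absolute step was 0.13 in LNCaP and 0.13 in VCaP.

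The largest step in LNCaP lay beside the centromere. At 28240000 its median fell from 0.68 to -0.18, whereas that of VCaP went from 0.34 to 0.44. Of 67698 positions on other chromosomes, 298, or 0.44%, had a LNCaP step as large. In VCaP the largest step was at 30120000, from 1.22 to 0.45, and there LNCaP went from 0.34 to -0.25, the same direction. A step as large in VCaP was found at 2.34% of positions elsewhere.

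Rows next to the centromere departed from the rest. The 6 members of stretch 4, from 24400001 to 24640000, had medians of 0.69 in LNCaP and 0.60 in VCaP, and VCaP was the higher in only 2 of them. The first 10 members of the long arm, from 27720001 to 28120000, had medians of 0.70 in LNCaP and 0.29 in VCaP. All 16 rows were associated in both lines. The 200 kb window with the lowest VCaP minus LNCaP difference lay here, from 27880001 to 28080000, with means of 0.28 ± 0.09 in VCaP and 0.73 ± 0.03 in LNCaP (SD over 5 rows). Its difference of -0.45 had a noise SD of 0.21.

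The tip of the short arm was low in both lines. From 80001 to 280000 the 5 deposited LNCaP values were -0.71, -1.63, -2.21, -1.87 and -0.90, and those of VCaP were 0.20, 0.05, -0.72, -0.52 and -0.20. Every row was outside the associated state in both lines. All 5 rows lie beside the chromosome end, where the table begins. By the row at 320001 to 360000 the values had risen to 0.25 in LNCaP and 0.86 in VCaP, and both lines were associated. With the averaging undone, the rows from 80001 to 200000 were at -1.55, -2.78 and -2.30 in LNCaP and -0.38, -0.45 and -1.34 in VCaP. Those from 200001 to 280000 were at -0.53 and 0.12 in LNCaP and 0.21 and 0.53 in VCaP. The deposited VCaP lows from 200001 to 280000 thus came from averaging with the rows before them.

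Windows of 5 rows mark the extremes. Besides the tip, the lowest in LNCaP were those at 55240001 to 55440000 (-1.36 ± 1.06, SD over 5 rows), 47320001 to 47520000 (-1.18 ± 0.07), 49040001 to 49240000 (-1.05 ± 0.04) and 47600001 to 47800000 (-1.03 ± 0.05). The last of these and its 2 predecessors are in stretch 7. VCaP means in the 4 windows were 0.69, 0.16, 0.54 and 0.40. The window at 47320001 to 47520000 was thus among the 5 lowest in both lines.

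Highest in LNCaP were 9000001 to 9200000 (0.90 ± 0.10), 8720001 to 8920000 (0.88 ± 0.07), 5400001 to 5600000 (0.81 ± 0.07), 24440001 to 24640000 (0.76 ± 0.15) and 27920001 to 28120000 (0.73 ± 0.02). The first of them was also the second highest in VCaP, at 1.28 ± 0.24, and borders the first zinc finger cluster. VCaP was highest at 29920001 to 30120000 (1.41 ± 0.05, LNCaP 0.39 ± 0.07). Its other high windows were 29440001 to 29640000 (1.25 ± 0.06), 3840001 to 4040000 (1.17 ± 0.12) and 50920001 to 51120000 (1.13 ± 0.07). The LNCaP means there were 0.22, 0.57 and 0.06.

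The gap between the lines was widest at 55240001 to 55440000, with a difference of 2.05 and a noise SD of 0.21. Next came 45640001 to 45840000 (1.83, LNCaP -0.81 ± 0.07, VCaP 1.03 ± 0.04), 42400001 to 42600000 (1.65), 49400001 to 49600000 (1.65) and 49080001 to 49280000 (1.64). These 4 fall in the block of low LNCaP values. The smallest differences after those at the centromere were 0.10, 0.11 and 0.13, all in stretch 1 at 8800001 to 9000000, 5440001 to 5640000 and 6840001 to 7040000, where LNCaP had 0.81, 0.73 and 0.72.

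A pair of narrow LNCaP dips rested on very few rows, so the window with the widest gap between the lines does too. In the window of the widest gap, the 4 deposited rows from 55240001 to 55400000 had LNCaP values of -1.03, -2.38, -2.41 and -1.10. With the averaging undone, only the rows at 55240001 to 55280000 and 55280001 to 55320000 were low, at -3.70 and -3.90, and the next was 0.35. The VCaP values of the 4 deposited rows were 0.70, 0.70, 0.71 and 0.56. A smaller dip, at 7320001 to 7440000, had LNCaP values of -0.65, -0.55 and -0.45 and came from a single row at -2.78, with 0.45 before it and 0.67 after it. VCaP had 0.70, 0.74 and 0.93 there. The undone LNCaP value of that single row, -2.77682, was also that of the short arm tip row at 120001 to 160000. The reason was not tested, and the read depth is unknown. The second dip splits a LNCaP-associated run.

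Runs of the associated state show how it was laid out in LNCaP. The 324 associated members formed 13 runs, of which 9 had at least 10 rows. The longest, 4.96 Mb from 2360001 to 7320000, had means of 0.45 in LNCaP and 0.84 in VCaP. The next were 7440001 to 9200000 (0.52 in LNCaP) and 9960001 to 11680000 (0.35), which end at cluster borders because the rule does. Shorter runs lay at 320001 to 840000 (0.22), 13360001 to 14200000 (0.35), 14720001 to 15240000 (0.25) and 19160001 to 19800000 (0.42). The long arm held only 2, at 27720001 to 28240000 (0.56, VCaP 0.38) and 29480001 to 30160000 (0.27, VCaP 1.21). The last LNCaP-associated member ended at 30160000, so by that choice LNCaP was associated in 0 of the 557 members beyond it. Their LNCaP median was -0.16, and VCaP was associated in 540 of them with a median of 0.70. Of the 43 cluster rows from 36680001 to 38400000, 3 were associated in LNCaP.

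In VCaP the exceptions were few. The 22 members outside the associated state formed 6 runs, of which 2 had 5 rows. These were the short arm tip and 34680001 to 34880000, where VCaP had a mean of 0.00 and LNCaP of -0.41. The other 4 runs held 4 rows at 30440001 to 30600000 (-0.22), 4 rows at 40520001 to 40680000 (0.03), 1 row at 52360001 to 52400000 and 3 rows at 54000001 to 54120000, the last 2 touching the cluster between them. LNCaP was outside the associated state in all 22 rows, which restates that no member was associated in LNCaP only.

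The lines shared local ups and downs despite their different levels. Across the 1075 members the Pearson r between the lines was 0.37 and the Spearman rho 0.37, and r was 0.28 over all rows. After subtracting the mean of each 1 Mb, r was 0.51 for members and 0.42 for all rows. It was 0.67 on the short arm (rho 0.59) and 0.41 on the long arm (rho 0.44). Neighbouring rows share averaged entries, and all rows of a line share its 2 libraries, so these are descriptions across rows. By stretch, without that subtraction, r ranged from -0.07 in stretch 6 to 0.69 in stretch 1 among those of 20 or more rows. By rank the order differed, with rho from -0.02 in stretch 6 to 0.66 in stretch 2, and only 0.46 in stretch 1.

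Members also varied less around their local mean in VCaP than rows in general. The SD around the 1 Mb mean was 0.23 for members, 0.28 for cluster rows and 0.30 for all rows of VCaP. In LNCaP it was 0.24, 0.20 and 0.24. VCaP was above 0 in the mean of 36 of the 36 complete 1 Mb windows, between 0.47 and 0.99. LNCaP was above 0 in 15 of them and below in 21, between -0.87 and 0.51.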

How the data were processed

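The deposited tables hold log2 enrichment of lamin B1 ChIP over input of the same line, and a hidden Markov model state (AD or iAD) per row, per the file names; AD had the higher mean in both lines and is called associated. The submitters' processing notes name hg19 and STAR. Scaling, filters and model settings are not given in the sources used here. Wide rows, with a median absolute deposited log2 value of 0.15 in LNCaP and 0.26 in VCaP, came to 0.004 and 0.007 when a trailing mean of 3 entries was undone, so a value is read as an average over 3 entries, the last being the row itself, which shifts signal about 40 kb downstream.

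Noise is the median absolute difference of rows 3 apart, times 1.4826, divided by the square root of 2. Both lines' noise was added in quadrature, and 1.96 times the result (0.53) is the limit of noise. The noise of a mean counts 1 value per 3 rows. The centromere is the widest stretch without a common row (24640001 to 27720000). Rows not 40 kb wide, 3 on chromosome 19 in each line, were left out.

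Named regions are all stretches, the 5 highest and 5 lowest windows of 5 rows per line and for the difference, LNCaP associated runs of at least 10 rows and VCaP runs of at least 5 rows outside the state; steps, the low block and dips were singled out after their values were seen. Members, lists and rules were chosen with earlier results of these data known. Some genes of the fixed list are not reported here, and the gene groups were counted without them. Undoing the average was tested on simulated data. Work was done in Python 3.11.15 with pandas 2.3.3, numpy 2.4.6, matplotlib 3.10.9 and scipy 1.17.1.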

Additional observations from a re-analysis of the deposited data

Results flagged for a closer look

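Members and clusters stood in opposite order in the 2 lines. The member median minus the cluster median was -0.11 in LNCaP and 0.39 in VCaP. The LNCaP value was -0.059 with the averaging undone and -0.061 without stretch 7, and the long arm medians differed by -0.002. Whether the contrast differs between lines was not tested, since neither line has a replicate.

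A similar contrast was seen against the rest of the genome. The member median minus that of all rows off chromosome 19 was -0.047 in LNCaP and 0.575 in VCaP, and this difference was not tested either. The LNCaP side was 0.0057 without stretch 7, which was chosen after seeing the data because its LNCaP median was the lowest. Leaving it out was bound to raise the value, and no other stretch was left out.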

How the results depend on the processing

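For 14 results 73 alternative values were computed, 60 from the planned list and 13 chosen after seeing the data. Of these, 49 stayed within the noise of the median or difference, 0.1 for a correlation, or the 95% exact binomial interval of a share, which is narrow because averaged neighbours count as separate rows. In 1 case the sign turned: without stretch 7 the LNCaP members minus rows off chromosome 19 went from -0.047 to 0.0057. The other 23 moved. Without stretch 7 the LNCaP median was 0.064, its difference from the clusters -0.061, its arm difference 0.30 and the median VCaP minus LNCaP difference 0.68. With the trailing mean undone, members minus clusters was -0.059 in LNCaP and 0.34 in VCaP, members minus rows off chromosome 19 was -0.056 and 0.56, and the LNCaP arm difference was 0.42. After quantile normalization the medians were 0.071 in LNCaP and 0.65 in VCaP, the median difference 0.58, LNCaP members minus clusters -0.13, the LNCaP arm difference 0.42, and members minus rows off chromosome 19 -0.055 and 0.54. Counting enrichment over 0 as associated gave 50.7% of members in LNCaP and 48.1% in VCaP only, and over each line's genome median 44.1% and 53.1%. The share beyond the limit of noise was 47.7% with the mean undone, where the limit rose from 0.53 to 0.77, 84.4% with noise from the differences themselves, where it fell to 0.39, and 56.1% after quantile normalization, where it was 0.52 and the median difference smaller. For the other moves the cause was not tested. No paired analysis was possible because every group is a single library. Depth is unknown, so no counting error is given.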
